A study of Rattus norvegicus with 3 samples.

Results

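The genes described here move, store and sense zinc, iron and copper: the zinc exporters (Slc30a genes) and zinc importers (Slc39a genes), the metallothioneins and their transcription factor gene Mtf1, the copper transporters and chaperones, and the genes of iron uptake, export, storage, sensing and release from haem. Rows were taken by a rule on gene names, and 50 of the 30957 listed rows carried a matching name, with 49 different symbols because Mt1 stood in 2 rows. Slc40a1, the iron exporter ferroportin, was also sought and is not analysed here. The data are messenger RNA levels in motor cortex of 3 male Sprague-Dawley rats, called rat 12, rat 24-4 and rat 33 after their numbers. All 3 had cerebral ischemia followed by reperfusion, in which brain tissue loses its blood supply and regains it, and were treated by electroacupuncture at the GB20 (Fengchi) acupoint, and the labels give a time of 8 weeks without its starting point. The animals form 1 group with 1 library each, so levels and their spread between treated rats were described and no effect of ischemia or treatment was tested.

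Zinc, iron and copper serve as cofactors of many brain enzymes, and free iron and copper can drive the formation of damaging radicals. Cells therefore keep them bound: iron in the ferritin shell, zinc and copper on the cysteines of metallothioneins, and copper on chaperones that hand it to pumps and enzymes. In the cortex, zinc is also packed into synaptic vesicles of glutamatergic neurons, and iron enters from blood and interstitial fluid bound to transferrin, which in brain is made mainly by oligodendrocytes and the choroid plexus. When zinc rises, the factor MTF1 binds short DNA sequences called metal response elements before the start of metallothionein genes and of the zinc exporter gene Slc30a1.

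Sequences are shown before Mt1, Mt2A and Mt3, because all 5 metallothionein rows had the same order of the rats, and before Slc30a1. Slc30a1 had another order. RefSeq promoter entries (GRCr8) were matched to 39 of the 49 symbols, and those of Fth1, Ftl1, Hmox1, Mt1m, Slc11a1, Slc30a7, Slc30a8, Slc30a10, Slc39a4 and Slc39a14 were not matched. The 250 bases before the transcription start are given 5′ to 3′, with capitals marking matches to the metal response element core, TGCACNC or TGCGCNC on either strand. Mt1 and Mt2A encode the broadly expressed metallothioneins, Mt3 the one enriched in brain, and Slc30a1 the zinc exporter of the cell surface.
Mt1, chr19:10832976-10833225, minus strand: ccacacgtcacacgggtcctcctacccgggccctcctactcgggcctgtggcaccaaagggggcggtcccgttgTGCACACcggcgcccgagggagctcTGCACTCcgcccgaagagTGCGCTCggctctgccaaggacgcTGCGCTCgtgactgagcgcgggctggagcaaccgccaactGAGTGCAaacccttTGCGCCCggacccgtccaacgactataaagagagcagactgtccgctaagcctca
Mt2A, chr19:10838709-10838958, minus strand: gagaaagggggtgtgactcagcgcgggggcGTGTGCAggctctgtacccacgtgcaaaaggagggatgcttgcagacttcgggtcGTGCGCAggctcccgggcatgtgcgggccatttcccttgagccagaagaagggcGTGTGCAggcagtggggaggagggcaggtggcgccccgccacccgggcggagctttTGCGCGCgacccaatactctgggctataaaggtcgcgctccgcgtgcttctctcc
Mt3, chr19:10856081-10856330, minus strand: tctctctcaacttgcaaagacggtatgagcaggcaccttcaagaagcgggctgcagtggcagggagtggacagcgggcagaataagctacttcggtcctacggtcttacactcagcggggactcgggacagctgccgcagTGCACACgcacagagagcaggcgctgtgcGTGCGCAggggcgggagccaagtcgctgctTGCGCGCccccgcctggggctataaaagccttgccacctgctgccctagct
Slc30a1, chr13:106021769-106022018, plus strand: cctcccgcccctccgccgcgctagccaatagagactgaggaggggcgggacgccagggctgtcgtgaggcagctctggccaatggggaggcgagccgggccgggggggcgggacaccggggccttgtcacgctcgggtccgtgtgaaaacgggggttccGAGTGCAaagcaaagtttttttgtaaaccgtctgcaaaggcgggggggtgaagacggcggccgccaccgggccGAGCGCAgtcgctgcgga

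The Mt1 window held 6 matches, of which 5 were on the strand of the gene. The Mt2A window held 4, with 1 on the strand of the gene, Mt3 held 3 and Slc30a1 held 2. No 2 of these matches overlapped. Of 27457 genes with RefSeq windows of this length, 22.5% had a window with at least 1 match, 1.34% with at least 3 and 0.299% with at least 4. Over the 33469 windows themselves the shares were 20.6%, 1.17% and 0.266%. Among the 39 matched symbols, 18 had a window with at least 1 match and 5 had at least 3, namely Mt1, Mt2A, Mt3, Slc39a7 and Tfrc. Slc39a7 and Tfrc did not have the rat order of the metallothioneins. Of the other matched symbols with that order, Tf had 2 matches, and Atp7b, Ccs, Slc31a2 and Slc39a1 had 1 each. Aco1, Slc30a6 and Slc39a6 also had that order and held no match. Slc30a3, Slc39a12 and Cp, in other orders, had none either. A link between matches and the order of the rats was not tested. A match is a run of letters and was not shown to be bound here.

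**Figure D1:**
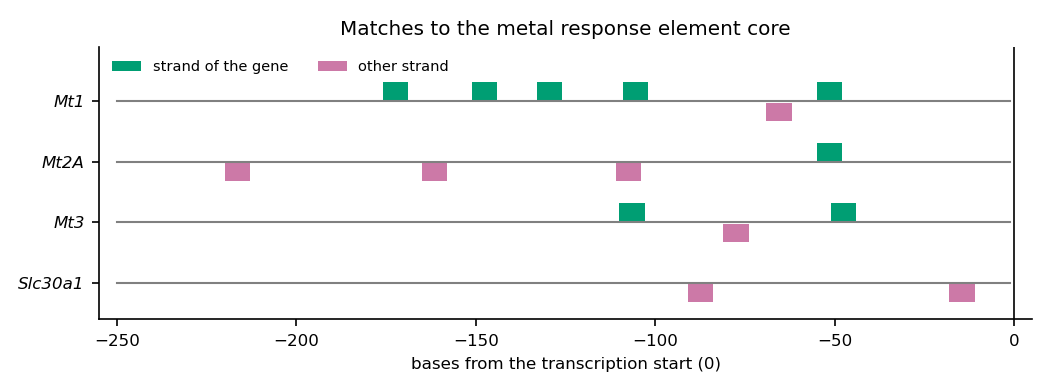
Positions of the metal response element core before the start of Mt1, Mt2A, Mt3 and Slc30a1, in bases from the transcription start, with matches on the strand of the gene above the line and on the other strand below it. The nearest match began 55 bases before the start in Mt1 and Mt2A, 51 in Mt3 and 18 in Slc30a1.

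Levels are in FPKM (fragments per kilobase of gene length in every 1000000 fragments), a unit that allows genes of a rat to be set side by side. Of the 50 rows, 41 had a mean FPKM of at least 1 over the rats, and 3 were listed at 0 in all rats (Mtf1, Slc30a2 and Slc30a8). A 0 in these files can be a failed estimate, since the iron chaperone Pcbp1 and the cysteine desulfurase Nfs1, which most cells use, were listed at 0 as well. Depth was estimated at 15340000, 17240000 and 13000000 fragments in rats 12, 24-4 and 33. For a 1 kb gene, FPKM 1 corresponds to 15.3, 17.2 and 13.0 fragments in these rats, and 3 fragments of it would give 0.196, 0.174 and 0.231. The 50 rows together took 0.562%, 0.896% and 1.04% of all FPKM in rats 12, 24-4 and 33. The mitochondrial genome took 25.1%, 13.6% and 19.7%, and of the FPKM outside it the 50 rows took 0.751%, 1.04% and 1.29%, in the same order of rats.

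**Figure D2:**
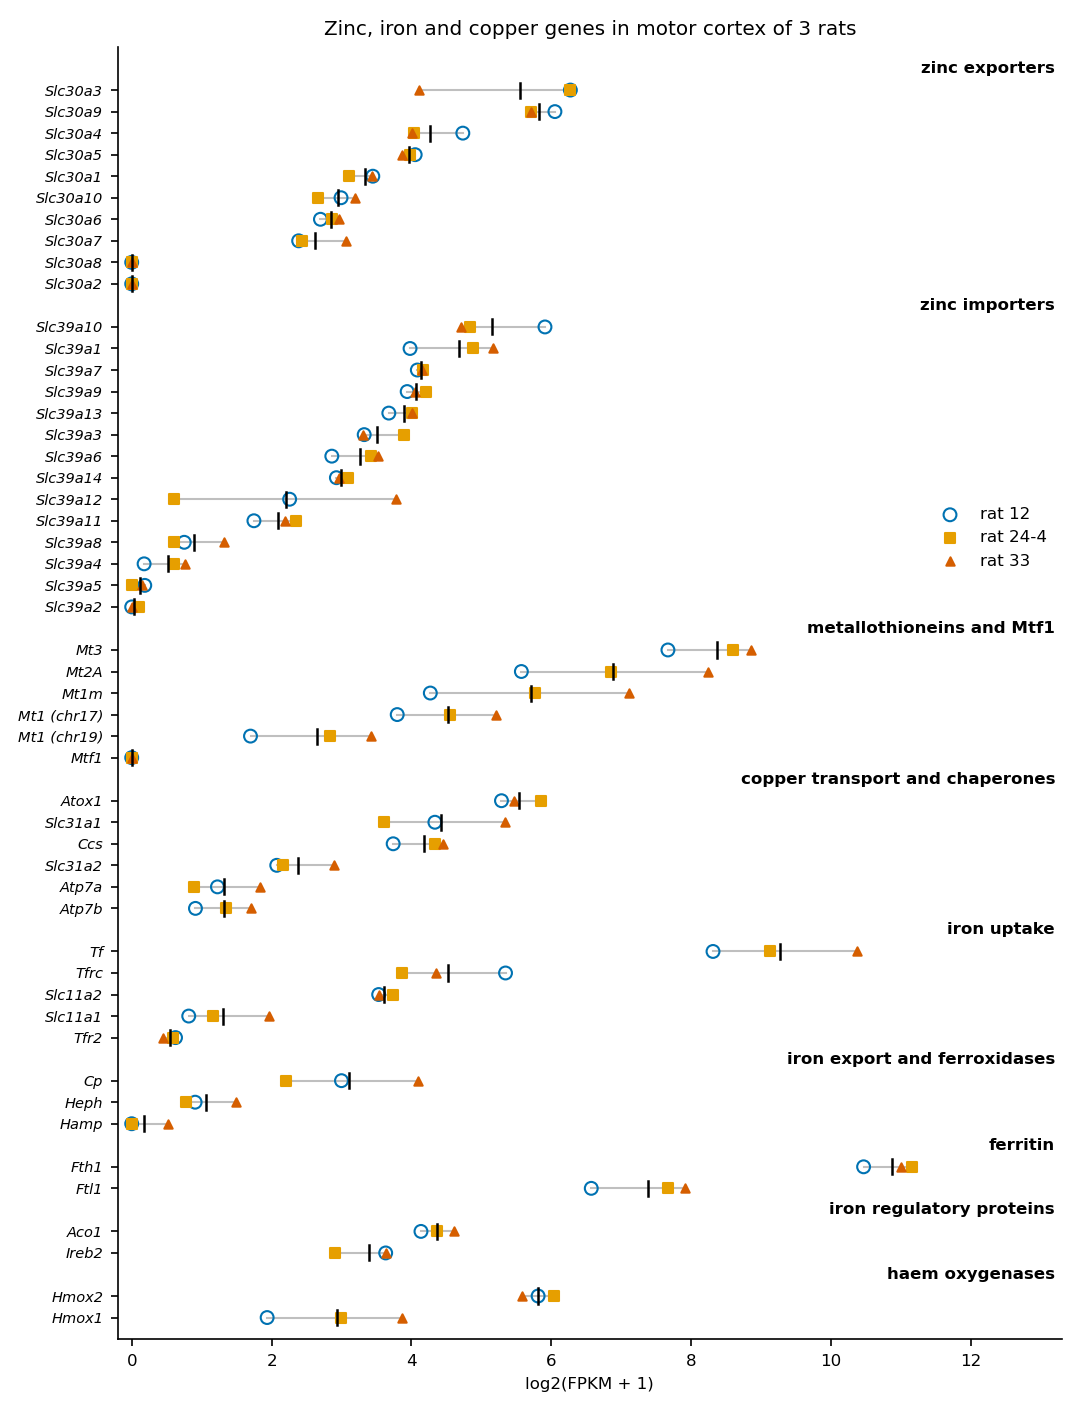
Level of the 50 rows, grouped by role, on the log2(FPKM + 1) scale, with 1 symbol per rat and a black bar at the mean of the 3 rats. Fth1 lies highest at 10.87 ± 0.36 (SD, n = 3), and the 5 metallothionein rows run from rat 12 (lowest) to rat 33 (highest).

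Of the zinc exporters, Slc30a3 and Slc30a9 had the highest means. Slc30a3 encodes ZnT3, which loads zinc into synaptic vesicles of glutamatergic neurons, and lies on chromosome 6 from 26642783 to 26650105 (Rnor_6.0, as for all gene positions here). Its FPKM in rats 12, 24-4 and 33 was 76.3, 75.9 and 16.2 (56.1 ± 34.6, SD, n = 3 rats, as for every ± below). Rats 12 and 24-4 were alike and rat 33 stood 4.72-fold below the highest.

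The low Slc30a3 in rat 33 coincided with low markers of both GABAergic and glutamatergic neurons. All 5 GABAergic markers were lowest in rat 33, and they summed to 449, 504 and 259 FPKM in rats 12, 24-4 and 33. The 5 glutamatergic markers used, Slc17a7, Camk2a, Neurod6, Nrgn and Tbr1, summed to 2034, 2141 and 1023 FPKM in these rats. Of these 5, 4 were lowest in rat 33. Nrgn, the most abundant of them, had 931, 770.0 and 383. Slc30a3 amounted to 3.75%, 3.55% and 1.58% of that sum, so it was lower in rat 33 also relative to these markers. The part of the neuronal markers in the result was not tested, and in bulk tissue fewer cells of a type and less RNA per cell cannot be told apart.

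The other exporters differed less. Slc30a9, which encodes a zinc transporter of mitochondria, had 65.3, 51.5 and 51.3 in rats 12, 24-4 and 33 (56.0 ± 8.01). Slc30a4, an exporter of endosomes, had 25.6, 15.5 and 15.0 (18.7 ± 5.998). Slc30a1 had 9.91, 7.62 and 9.80 (9.11 ± 1.29), and Slc30a10, known mainly as a manganese exporter, had 6.96, 5.36 and 8.18 (6.83 ± 1.42). Slc30a5, Slc30a6 and Slc30a7, which supply zinc to the Golgi and secretory pathway, had means of 14.7 ± 1.002, 6.21 ± 0.676 and 5.32 ± 1.75. The role group had a median of 3.17 ± 0.17 on the log2(FPKM + 1) scale over 10 members, 2 of them listed at 0. Over the 13754 genes whose mean FPKM reached 1 the median was 3.48 ± 0.07. Only 8 of the 10 members reached that level, so these medians are of unlike sets and were not ranked.

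Zinc importers were led by Slc39a10, Slc39a1 and Slc39a7. Slc39a10, a cell surface importer, had 59.1, 27.7 and 25.01 in rats 12, 24-4 and 33 (37.3 ± 18.9), highest in rat 12. Slc39a1, also a surface importer, had 14.8, 28.4 and 34.8 (26.01 ± 10.2), lowest in rat 12. Slc39a7, which releases zinc from the endoplasmic reticulum, had 15.95, 16.9 and 16.7 (16.5 ± 0.506). Its highest and lowest rats differed by 1.06-fold. The order of the rats for Slc39a7 changed with the scaling of the libraries.

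Slc39a12 had the widest span of the 41 rows. The gene, which encodes the importer ZIP12 and lies on chromosome 17 from 81455955 to 81541759, had 3.78 in rat 12, 0.518 in rat 24-4 and 12.7 in rat 33 (5.66 ± 6.29). The highest value was 24.5-fold the lowest, and no pair of rats was close. The order, rat 33, rat 12, rat 24-4, was also that of choroid plexus markers, of which 9 of 10 were found and none was at 0 in all rats. They summed to 3346, 129 and 13211 FPKM in rats 12, 24-4 and 33. Ttr, the most abundant, had 3233, 124 and 12747. Slc39a12 amounted to 0.113%, 0.401% and 0.0959% of that sum, a 4.18-fold range. The fibroblast and meninges sum was also highest in rat 33, with 27.3, 27.2 and 91.0, but near-equal in rats 12 and 24-4. Of that list, Lum and Col1a1 were higher in rat 24-4 than in rat 12, and Dcn and Col3a1 were lower. Astrocyte markers did not have the order of Slc39a12, with sums of 1384, 2391 and 3180. The part of choroid plexus tissue in the Slc39a12 values was not tested.

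Of the other importers, Slc39a9 (15.8 ± 1.61), Slc39a13 (13.9 ± 1.87), Slc39a3 (10.6 ± 2.83), Slc39a6 (8.83 ± 2.26), Slc39a14 (6.99 ± 0.491) and Slc39a11 (3.34 ± 0.896) had highest-to-lowest ratios from 1.14 for Slc39a14 to 1.74 for Slc39a11. Slc39a14, which also carries iron and manganese, had 6.603, 7.54 and 6.83 in rats 12, 24-4 and 33. Slc39a8, a carrier of zinc and manganese, had 0.683, 0.518 and 1.49 (0.898 ± 0.521). Slc39a4, the intestinal importer, had 0.131, 0.524 and 0.694, Slc39a5 had 0.138, 0 and 0.109, and Slc39a2 had 0, 0.0756 and 0. These 4 lay below a mean FPKM of 1. Over its 14 members the group had a median of 3.19 ± 0.27 on the log2(FPKM + 1) scale.

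The metallothioneins, small cysteine-rich proteins that bind zinc and copper, were lowest in rat 12 and highest in rat 33 in each of their 5 rows. Mt3 (chromosome 19, 11324698 to 11326139) had 202 in rat 12, 385 in rat 24-4 and 464 in rat 33 (351 ± 134). Mt2A (chromosome 19, 11307967 to 11308740) had 46.5, 114 and 302 (154 ± 132), a 6.48-fold range. Mt1 on chromosome 19 (11302125 to 11302938) had 2.25, 6.16 and 9.71 (6.04 ± 3.73). These 3 genes lie on the minus strand in 1 cluster, with 5028 bases between Mt1 and Mt2A and 15957 between Mt2A and Mt3.

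A further 2 rows, Mt1m on chromosome 20 and Mt1 on chromosome 17, are short loci of 374 and 389 bases. Mt1m had 18.3, 53.6 and 137 in rats 12, 24-4 and 33 (69.5 ± 60.8). At the estimated depths this is 105 fragments in rat 12 (95% exact Poisson interval 85.9 to 127), 346 in rat 24-4 (310.5 to 384) and 665 in rat 33 (615 to 718). The chromosome 17 row had 12.9, 22.5 and 35.9 (23.8 ± 11.6), or 77, 151 and 182 fragments. The intervals of the rats do not overlap for Mt1m, while for the chromosome 17 row rat 24-4 (128 to 177) and rat 33 (157 to 210) overlap. These intervals cover counting error only. RefSeq (GRCr8) lists Mt1m as a pseudogene, and the chromosome 17 row lies inside Dclre1c on the opposite strand. Because such copies can share fragments with Mt1, and because the strand setting of the counting is not given in the sources used here, single Mt1 values are uncertain. Summed, the 3 rows whose names begin with Mt1 had 33.4, 82.3 and 182 FPKM in rats 12, 24-4 and 33, in the same order as Mt2A and Mt3.

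Relative to rat 12, rat 33 was 2.30-fold higher for Mt3, 6.48-fold for Mt2A, 4.32-fold for Mt1 on chromosome 19 and 7.48-fold for Mt1m. The order of the rats in the 5 rows stayed the same with the mitochondrial genome left out and with median-of-ratios rescaling. Astrocytes are known as a main site of metallothionein expression in brain, and all 8 astrocyte markers were found. Their sum had the same order, and 5 of the 8 were highest in rat 33. Gfap, the most abundant, had 271, 937 and 1585 in rats 12, 24-4 and 33. Mt3 amounted to 14.6%, 16.1% and 14.6% of that sum, and Mt2A to 3.36%, 4.78% and 9.49%. The near-equal share of Mt3 in rats 12 and 33 rested on Gfap, a marker of reactive astrocytes: without it Mt3 was 18.2%, 26.5% and 29.1% of the sum, a 1.60-fold range, and Mt2A 4.18%, 7.85% and 18.9%. Of the other markers, S100b had 568, 818 and 864 and Gja1 had 80.2, 99.9 and 187. Both had the order of the metallothioneins, as had Slc1a3 and Aldh1l1. Aldoc had 269, 286 and 232 and Slc1a2 had 153, 184 and 161, neither in that order, nor was Aqp4. The part of astrocyte number or state in these values was not tested.

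**Figure D3:**
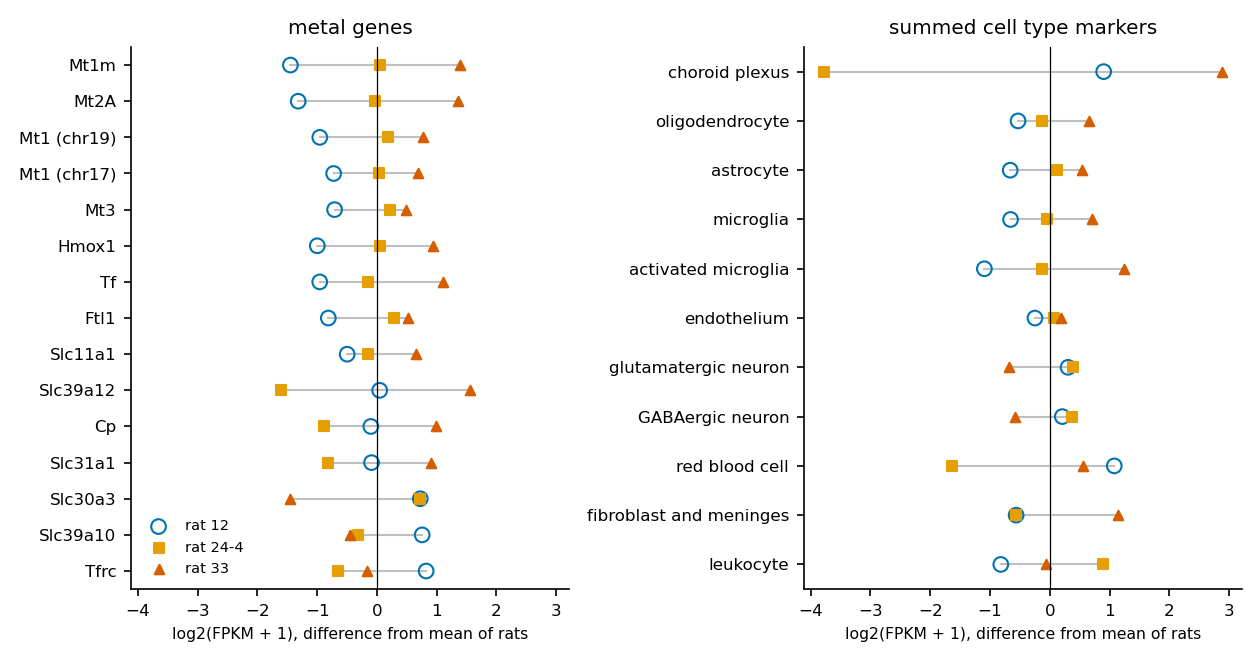
Difference of each rat from the mean of the 3 rats, on the log2(FPKM + 1) scale, for 15 metal gene rows (left) and for the summed markers of 11 cell type lists (right). The metallothioneins, Hmox1, Tf, Ftl1 and Slc11a1 run from rat 12 to rat 33, as do the oligodendrocyte, astrocyte, microglia, activated microglia and endothelium sums. The endothelium order does not hold without Cldn5. Slc39a12, Cp and Slc31a1 are lowest in rat 24-4, as are the choroid plexus and red blood cell sums. The fibroblast and meninges sum is near-equal in rats 12 and 24-4 and highest in rat 33.

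Copper genes were led by the chaperone Atox1, which delivers copper to the pumps ATP7A and ATP7B. Atox1 had 38.0, 56.8 and 43.3 in rats 12, 24-4 and 33 (46.1 ± 9.67). Ccs, the chaperone that loads copper onto superoxide dismutase, had 12.3, 19.3 and 20.9 (17.5 ± 4.56). The importer gene Slc31a1 (CTR1) had 19.2, 11.2 and 39.3 (23.2 ± 14.5), a 3.51-fold range. Its order was that of the choroid plexus markers. The fibroblast and meninges sum, near-equal in rats 12 and 24-4, was also highest in rat 33. Slc31a1 amounted to 0.573%, 8.64% and 0.297% of the choroid plexus sum, a 29.1-fold range that is wider than its own. Slc31a2, a relative found mostly on internal membranes, had 3.21, 3.48 and 6.396 (4.36 ± 1.77). The pump genes were low, at 1.34, 0.853 and 2.55 for Atp7a and 0.881, 1.54 and 2.25 for Atp7b. The Atp7a locus overlaps another row on its own strand over 2133 bases, with 0.733, 2.04 and 1.04, and how fragments were divided there was not tested. Of the 6 copper genes, 5 were highest in rat 33.

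Iron uptake genes were dominated by Tf, which encodes transferrin. Tf (chromosome 8, 111673547 to 111721333) had 317 in rat 12, 556 in rat 24-4 and 1320.1 in rat 33 (731 ± 524), a 4.17-fold range. The 9 oligodendrocyte markers summed to 5689.6, 7517 and 12999.8 FPKM in the same rats, and all 9 were highest in rat 33. Mbp, the most abundant of them, had 2334, 3669 and 5460.5. Tf amounted to 5.56%, 7.39% and 10.2% of that sum, so its range was wider than that of these markers. The choroid plexus sum was also highest in rat 33, but rat 24-4, its lowest, had more Tf than rat 12. The part of either tissue in the Tf values was not tested.

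The transferrin receptor gene Tfrc went the other way between rats 12 and 33. It had 39.6, 13.6 and 19.4 in rats 12, 24-4 and 33 (24.2 ± 13.7), highest in rat 12. The 5 endothelial markers that were found, led by Cldn5, summed to 85.4, 107 and 115, an order that Tfrc did not have. That order rested on Cldn5. Without it the sum was 51.8, 44.4 and 72.7, with rat 24-4 lowest as for Tfrc but rat 33 highest. The red blood cell sum, led by Hba1, was 565, 85.0 and 395, with rat 12 highest and rat 24-4 lowest as for Tfrc. The part of blood cells, whose precursors carry much of this receptor, was not tested. The related receptor gene Tfr2 had 0.544, 0.499 and 0.361 (0.468 ± 0.0955).

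Slc11a2 encodes DMT1, which carries iron out of endosomes, and had 10.6, 12.4 and 10.6 in rats 12, 24-4 and 33 (11.2 ± 1.04). Slc11a1, its counterpart in phagocytes, had 0.760, 1.24 and 2.89 (1.63 ± 1.12). Slc11a1 had the order of the microglia markers, whose 8 genes summed to 162, 248 and 419, led by C1qa, and were all highest in rat 33. It amounted to 0.468%, 0.499% and 0.691% of that sum.

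Of the genes of iron export, Cp had the highest level. Cp encodes ceruloplasmin, a copper-containing enzyme that oxidises iron as it leaves the cell, and had 6.99 in rat 12, 3.62 in rat 24-4 and 16.1 in rat 33 (8.89 ± 6.44). Hps3, on the opposite strand, overlaps it over 10431 bases and had 7.38, 4.33 and 6.65, so part of the Cp value is uncertain if counting ignored the strand. Cp had the order of the choroid plexus markers. The fibroblast and meninges sum, near-equal in rats 12 and 24-4, was highest in rat 33 as well. Cp was 0.209%, 2.80% and 0.122% of the choroid plexus sum, a 23.0-fold range, and 0.505%, 0.151% and 0.505% of the astrocyte sum. Its relative Heph, hephaestin, had 0.875, 0.715 and 1.81 (1.13 ± 0.593). Hamp, which encodes the iron hormone hepcidin, was listed at 0 in rats 12 and 24-4 and at 0.427 in rat 33.

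The ferritin heavy chain gene Fth1 was the most abundant of the 50 rows and ranked 16 of 30957 rows by mean FPKM. Fth1 (chromosome 1, 226030938 to 226033228), whose product oxidises iron as it enters the ferritin shell, had 1411, 2277 and 2039 in rats 12, 24-4 and 33 (1909 ± 447). The light chain gene Ftl1 (chromosome 1, 101448346 to 101449829), whose product helps the shell form its iron core, had 94.0, 203 and 239 (179 ± 75.5). Both were lowest in rat 12. Fth1 lies inside the Best1 locus on the opposite strand, but Best1 had at most 0.270. A copy of the light chain gene, Ftl1l1 on chromosome X, had 6.72, 22.5 and 26.2, and fragments shared between the copies would leave the Ftl1 value uncertain.

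The iron regulatory proteins sense cellular iron and bind messenger RNAs of ferritin and the transferrin receptor. Aco1, which encodes the form that is also an aconitase, had 16.6, 19.6 and 23.3 in rats 12, 24-4 and 33 (19.8 ± 3.35), and Ireb2 had 11.4, 6.50 and 11.4 (9.77 ± 2.83). The haem oxygenases free iron from haem. The constitutive gene Hmox2 had 55.1, 65.0 and 47.0 (55.7 ± 9.02), and the inducible Hmox1 had 2.83, 6.96 and 13.6 (7.81 ± 5.45), a 4.82-fold range with rat 12 lowest. The 6 markers of activated microglia and macrophages, which break down haem, were led by Cd74 and were all highest in rat 33 and summed to 54.6, 107 and 278. Hmox1 amounted to 5.18%, 6.50% and 4.90% of that sum. Cd74 had another order than the other markers, with 33.9, 12.9 and 80.8, and without it Hmox1 was 13.6%, 7.40% and 6.90% of the sum, a 1.98-fold range with rat 12 highest.

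Ranked by mean FPKM, Fth1 exceeded Tf, Mt3 exceeded Ftl1, Slc39a13 exceeded Slc11a2, Slc39a11 exceeded Slc11a1 and Slc39a4 exceeded Hamp by more than the larger of their SDs. The other 44 of the 49 neighbouring pairs in that ranking did not differ beyond that spread. Fth1 and Tf together held 64.5%, 68.0% and 66.0% of the FPKM of the 50 rows in rats 12, 24-4 and 33.

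Pairs of genes with related roles were compared within each rat. Of 16 pairs, 14 had a difference of 1 sign in all 3 rats. The exact sign-flip permutation test, two-sided, returned p = 0.25 for each of the 14, which is the lowest that 3 rats permit, and 0.286 after Benjamini-Hochberg adjustment over the 16 pairs. No pair could therefore pass 0.05. On the log2(FPKM + 1) scale, Tf exceeded its receptor gene Tfrc by 4.75 ± 1.59, with 2.97, 5.25 and 6.02 in rats 12, 24-4 and 33. Fth1 exceeded Ftl1 by 3.49 ± 0.40 (3.89, 3.48 and 3.09), and Tfrc exceeded Tfr2 by 3.97 ± 0.72.

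Hmox2 exceeded Hmox1 by 2.88 ± 1.09, and the difference was 3.87 in rat 12, 3.05 in rat 24-4 and 1.71 in rat 33. Mt3 exceeded Mt2A by 2.10, 1.75 and 0.62, and Mt1m by 3.40, 2.82 and 1.75, in the same rats. Slc30a3 exceeded Slc30a1 by 2.82, 3.16 and 0.67. In each of these 4 pairs the difference was smallest in rat 33. The same held for Fth1 and Ftl1, Slc11a2 and Slc11a1, and Atox1 and Ccs, and by size for Slc30a10 and Slc30a9. For Slc39a10 and Slc39a14 the difference was near-equal in rats 24-4 and 33, at 1.75 and 1.73. The size of the difference was not smallest in rat 33 for Tf and Tfrc, Tfrc and Tfr2, or Cp and Heph. Nor was it for Slc31a2 and Slc31a1, where rat 33 had the largest, or Ireb2 and Aco1. Slc39a10 exceeded Slc39a14 by 2.15 ± 0.72, Slc11a2 exceeded Slc11a1 by 2.29 ± 0.62, Cp exceeded Heph by 2.04 ± 0.59 and Atox1 exceeded Ccs by 1.36 ± 0.30.

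Of the pairs with a negative difference, Slc30a10 minus Slc30a9 was -2.87 ± 0.31, Slc31a2 minus Slc31a1 was -2.05 ± 0.53 and Ireb2 minus Aco1 was -0.98 ± 0.48. The sign differed between rats for Atp7a minus Atp7b (0.31, -0.46 and 0.13 in rats 12, 24-4 and 33; exact p = 1). Without rat 24-4 its mean moved from -0.01 to 0.22. Slc39a12 minus Slc39a8 was 1.51, 0.00 and 2.46, with an exact permutation p of 0.5 (adjusted 0.533).

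**Figure D4:**
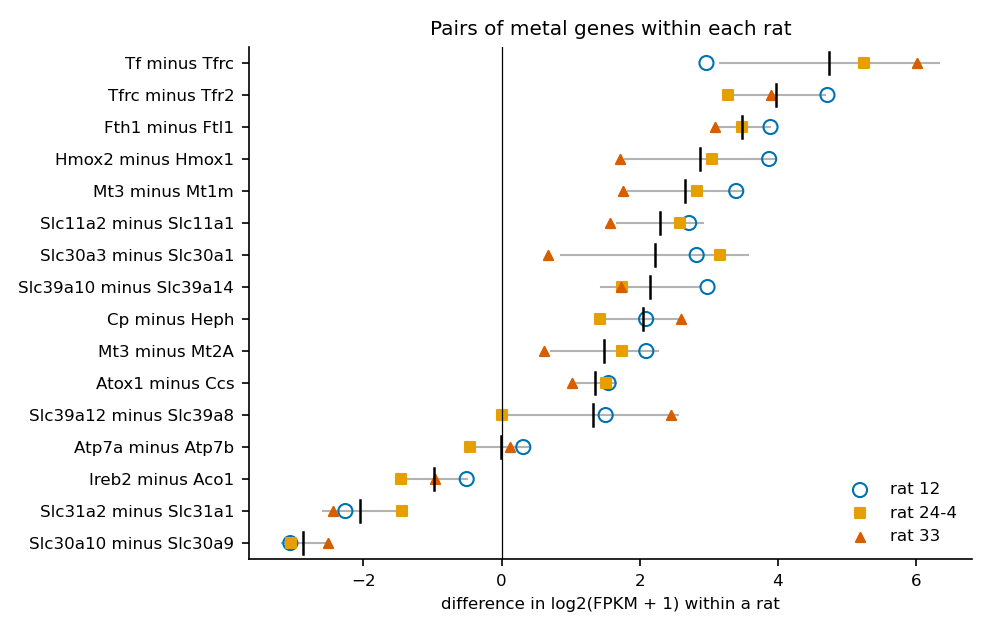
Difference in log2(FPKM + 1) between the genes of each pair in each rat, with a black bar at the mean of the rats and a grey line of 1 SD to either side. In 14 of the 16 pairs all 3 rats lie on the same side of 0.

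The spread of each gene over the rats was compared with that of genes of similar level, using limma on the 13754 genes whose mean FPKM reached 1. Of the 41 metal gene rows tested, 0 passed an adjusted p under 0.05, beside 14 of all genes tested (0.102%). On simulated data the fit recovered 4% of genes shifted 4-fold in 1 rat, so a shift of that size would mostly not pass. At an unadjusted p under 0.05 there were 10 of the 41, or 24.4%, beside 820 of all genes tested (5.96%). The 10 were Slc39a12, Mt1m, Slc30a3, Mt2A, Hmox1, Cp, Slc31a1, Mt1 on chromosome 19, Tf and Tfrc. Their limma p-values ran from 0.00164 for Slc39a12 to 0.0449 for Tfrc, and their adjusted p-values from 0.309 to 0.813. The highest value was in rat 33 for 8 of the 10. These rows are not independent, as Mt1m and Mt1 on chromosome 19 can share fragments. All 9 choroid plexus markers had an unadjusted limma p under 0.05 and 6 of them an adjusted one. No gene at all passed the adjusted threshold with a filter at a mean FPKM of 0.1, without any filter, under a non-robust prior, after removal of the mitochondrial genome or without rat 24-4, so these 6 calls did not hold there.

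Leaving out a rat changed this picture in places. Without rat 12, Slc39a12 passed (limma adjusted p = 0.00586), with 104 of all genes passing, and without rats 24-4 and 33 none of the metal genes did. The prior of the test was estimated anew each time. Without rat 12, 6 metal genes had an unadjusted p under 0.05 (Slc39a12, Slc30a3, Slc31a1, Cp, Mt2A and Mt1m). Without rat 33 there were also 6, and Slc30a3 had an unadjusted limma p of 0.992 without rat 33.

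**Figure D5:**
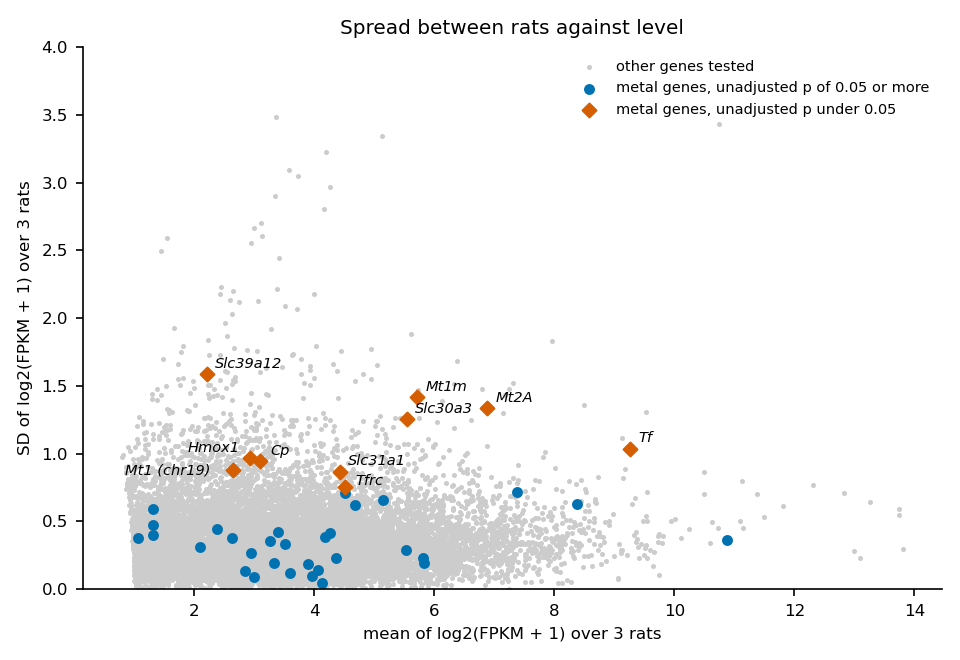
SD against mean of log2(FPKM + 1) over the 3 rats for the 13754 genes tested (grey), with the 41 metal gene rows in blue, or in orange where the unadjusted limma p was under 0.05. Slc39a12, Mt1m, Mt2A, Slc30a3 and Tf have SDs above 1.

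Among the 41 rows, 17 had the order rat 33, rat 24-4, rat 12 from highest to lowest (41.5%), beside 21.3% of all genes tested. Rat 12 was the lowest in 25 of the 41 (61.0%), beside 37.9% of all genes tested, and rat 33 the highest in 24 (58.5%, beside 42.0%). The median ratio of highest to lowest rat, on FPKM + 1, was 1.66 over these rows and 1.53 over all genes tested. With median-of-ratios rescaling 35 of the 41 kept their order of rats, and with the mitochondrial genome left out 32 did. The rows whose order changed under either scaling were Ireb2, Slc11a2, Slc30a7, Slc30a9, Slc31a2, Slc39a7, Slc39a9, Slc39a13 and Slc39a14. The 17 include all 5 metallothionein rows, and those whose names begin with Mt1 can share fragments, so the rows are not independent. The 41 passed a filter on their own level, and the counts describe these 3 libraries only.

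Other genes of metal handling were taken from a list of 64, of which 58 were found and 43 were tested. The 3 with the highest means were S100b, a calcium- and zinc-binding astrocyte protein, at 750.1 ± 159, App, the copper-binding amyloid precursor protein, at 532 ± 31.3, and the prion protein gene Prnp at 465 ± 67.8. None passed the adjusted limma threshold, and 3 of 43 (6.98%) had an unadjusted p under 0.05. Lcn2, a siderophore-binding protein of inflamed tissue and reactive astrocytes, had 1.17, 10.2 and 22.5 in rats 12, 24-4 and 33, with an adjusted p from limma of 0.174. Sod3, the extracellular copper- and zinc-containing superoxide dismutase, had 13.5, 9.99 and 49.2 (adjusted p from limma = 0.442). Hfe, a regulator of iron uptake, had 2.56, 0.561 and 6.69 (limma adjusted p = 0.569). Lcn2 thus had the order of the metallothioneins, and Sod3 and Hfe that of Slc39a12, Cp and Slc31a1.

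Among the marker lists, GABAergic neurons, led by Sst, summed to 449, 504 and 259 FPKM in rats 12, 24-4 and 33. Fibroblasts and meninges, led by Dcn, summed to 27.3, 27.2 and 91.0, with Col1a2 listed at 0. Leukocyte markers, led by Cd3e, summed to 1.05, 5.69 and 2.44, with Mpo listed at 0. The 5 glutamatergic markers used were present in all 3 rats, and the extent of the dissected tissue was not tested.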

How the data were processed

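The deposited values are FPKM, 1 file per rat. Per the labels and design text, the authors obtained FPKM from normalized fragment counts with a script. The submitters' processing notes name HISAT2 (2.0.4), StringTie (1.3.0) and build Rnor_6.0. How counts were normalized and the strand setting were not given in the sources used here. Each FPKM is relative to the library, so an abundant transcript lowers every other value.

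Short loci (up to 400 bp) gave the depth, since their low FPKM step by 1 fragment: in rat 12, 92.8% of 657 values were whole within 0.02, in rat 24-4 92.4% of 648, and in rat 33 93.5% of 662. The log2(FPKM + 1) scale was used, which understates differences of low genes. With limma 3.58.1 (R 4.3.3), an intercept was fitted per gene with a trended, robust prior, and residual over prior variance was compared with the F distribution, one-sided, with Benjamini-Hochberg adjustment over 13754 genes. The fit was tested on simulated data with 50 genes shifted in 1 rat at each fold. It recovered 4% of them at 4-fold, 74% at 16-fold and 100% at 64-fold. Other steps used scipy 1.17.1, pandas 2.3.3 and numpy 2.4.6 under Python 3.11.15.

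Members and lists were chosen with earlier results of these data known. All members are given, with the value in each rat for the 3 highest of each role, the 10 with the widest range and the members of pairs; of other genes, the highest marker of each list, the 3 highest metal genes and those with a low p are named. Alternatives were pseudocount, filter, prior, scaling, summed rows and leaving out each rat. One marker of glutamatergic neurons is not reported here, and its list was summed without it.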

Additional observations from a re-analysis of the deposited data

How the results depend on the processing

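No paired analysis was possible because all 3 rats belong to 1 group, which leaves no groups to pair; the gene pairs were compared within rats. No metal gene passed the adjusted threshold under any alternative that kept all 3 rats, and 0 to 1 did with a rat left out. The number of metal genes with an unadjusted p under 0.05 lay between 7 and 10 with all rats and between 6 and 8 with a rat left out. The count over all genes, 14, became 23 with a pseudocount of 0.1, and 0 with a mean FPKM of at least 0.1, with no filter, with a prior that is not robust, or after removing the mitochondrial genome and rescaling other genes to 1000000, a step that also lightened the pseudocount and let 15280 genes pass the filter. It ranged from 0 to 104 with a rat left out. The cause was not tested. Of the 16 pair differences, 1 reversed under any alternative, Atp7a minus Atp7b, at -0.16 without rat 12 and 0.22 without rat 24-4, the lowest and highest with a rat left out. Leaving out the mitochondrial genome raised log2 values by a median of 1.302 because of that rescaling, with 0.10, -0.07 and -0.03 relative to that in rats 12, 24-4 and 33. Medians of role groups moved beyond their SD in 4 of 9 groups when members below a mean FPKM of 1 were left out. Leaving out the marker of highest mean from each list, chosen after seeing the data, moved 13 of 14 mean shares of a metal gene in a marker sum beyond their SD, since the sums became smaller. Depth limits low genes such as Hamp and Slc39a2, and with 3 rats no difference between rats has a replicate.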
